A study of Homo sapiens with 29 samples.

Results

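The genes of cholesterol and fatty acid synthesis were followed in human myoblasts after knockdown of the zinc finger transcription factor ZNF148. The set held 32 genes, chosen for their role in the pathway, though earlier results of these data were known. There were 7 of the acetyl-CoA and mevalonate steps, 11 of the squalene and sterol steps and 5 that sense sterols or switch the pathway on. The others were 1 sterol carrier and 8 of fatty acid and glycerolipid synthesis. All 32 had a named probe among the 22439 genes named on the arrays, and all 32 were among the 18338 genes tested. Each gene is given by 1 probe, the one with the highest mean in the authors' normalized values.

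LHCN-M2 is a human myoblast line, not transformed but immortalized with telomerase and CDK4. An siRNA against ZNF148 or a nontargeting siRNA was transfected at 20 nM, and total RNA of each culture was hybridized to a 1-colour Agilent array. Cells in growth media were harvested subconfluent at 24 h and confluent at 48 and 96 h, and cells in differentiation media at 48 and 96 h. There were 29 arrays in 10 groups, each with 3 biological replicates, apart from the nontargeting group of 96 h in growth media with 2. All cells were of the same line, every group received an siRNA, and no untransfected culture is among the 29 arrays. For the screen of the same study, growth media are described with fetal bovine serum, dexamethasone and growth factors, and differentiation media with insulin and apo-transferrin and no serum. The labels count the hours of transfection in both media, whereas the methods word the later hours as time spent in media and place the change to differentiation media 2 days after transfection, so the time since the media change is not settled.

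Cholesterol is built from acetyl-CoA through mevalonate, isoprenoid diphosphates, squalene and lanosterol, and fatty acids are built from the same acetyl-CoA by carboxylation, chain synthesis, desaturation and elongation. Both branches are switched on by the SREBP transcription factors, which are made as membrane proteins of the endoplasmic reticulum. SCAP escorts SREBP to the Golgi for cleavage when sterols are scarce, and INSIG proteins hold SCAP back when sterols are plentiful. Dividing cells need these lipids for new membranes, and fusing myoblasts remodel theirs.

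Promoters were read from the RefSeq table of GRCh38.p14, as 250 bases before to 50 bases after each gene's start, and 28 of the 32 genes matched. Of the 28 promoters, 26 (92.9%) held the GC box GGGCGG on either strand, against 44.6% of all 27305 promoters and 58.5% of the 15843 of protein-coding genes. The letters CCAAT, the box bound by NF-Y, stood on either strand in 17 promoters (60.7%), against 35.7% of all promoters and 36.4% of those of protein-coding genes. The letters TCACNCCAC, like those of a sterol regulatory element, stood on either strand in 1 promoter (3.57%), that of SREBF2, against 1.15% of all promoters and 1.17% of those of protein-coding genes. A match describes this window only. SREBF2 is shown as the gene with that match. TM7SF2 and HMGCS1 follow, with the largest absolute media changes in the nontargeting arm at 96 h among the other matched genes. Capitals mark TCACNCCAC and CCAAT or its reverse complement.
SREBF2, chr22:41832855-41833154, plus strand: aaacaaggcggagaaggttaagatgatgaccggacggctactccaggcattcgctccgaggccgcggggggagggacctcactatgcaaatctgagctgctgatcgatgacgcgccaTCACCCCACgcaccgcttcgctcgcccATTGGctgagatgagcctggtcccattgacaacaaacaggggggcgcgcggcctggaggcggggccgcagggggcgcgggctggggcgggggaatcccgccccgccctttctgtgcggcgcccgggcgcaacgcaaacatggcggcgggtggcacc
TM7SF2, chr11:65111622-65111921, plus strand: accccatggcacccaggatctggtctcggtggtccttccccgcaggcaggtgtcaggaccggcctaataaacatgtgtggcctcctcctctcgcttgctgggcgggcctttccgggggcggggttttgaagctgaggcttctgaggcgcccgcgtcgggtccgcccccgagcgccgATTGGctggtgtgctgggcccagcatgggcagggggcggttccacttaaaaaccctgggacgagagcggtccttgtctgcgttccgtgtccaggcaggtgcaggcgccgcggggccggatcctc
HMGCS1, chr5:43313363-43313662, minus strand: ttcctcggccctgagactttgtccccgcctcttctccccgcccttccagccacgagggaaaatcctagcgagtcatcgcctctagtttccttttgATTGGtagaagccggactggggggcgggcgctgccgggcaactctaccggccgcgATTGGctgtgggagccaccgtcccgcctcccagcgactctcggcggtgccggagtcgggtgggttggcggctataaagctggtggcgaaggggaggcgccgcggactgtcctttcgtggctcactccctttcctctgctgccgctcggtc
The SREBF2 promoter held TCACCCCAC at base -133 from the start and 1 CCAAT box in reverse, the TM7SF2 promoter 1 CCAAT box in reverse, and the HMGCS1 promoter a pair of them.

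Signals are log2 values after quantile normalization over the 29 arrays. A change is a difference of group means on that scale, with its standard error (SE) from limma and a p-value adjusted by Benjamini-Hochberg over 38714 probes. A gene rose or fell where it moved more than 2-fold with an adjusted p below 0.05, and it is called higher or lower on the adjusted p alone where the fold was not required. ZNF148 had log2 signals of 8.51 to 9.83 on the nontargeting arrays and 6.53 to 7.29 on the ZNF148 siRNA arrays, with no overlap. The share of probes well above background ran from 41.5% to 56.5%, and the number of arrays limits the precision. Of the set, 31 genes were well above background on all 29 arrays, and TM7SF2 on 23 of them. The arrays of 24 h shared slide 1 and the others were spread over slides 2, 3 and 4, so time and slide cannot be told apart between 24 h and later. One control array stood apart from its group: on replicate 1 of nontargeting siRNA at 48 h in growth media, the mean log2 signal of 10 myoblast and myotube markers was 15.21, against 9.66 and 9.67 on the other arrays of that group. For comparisons that use this array, the counts of risen and fallen genes of the set and their median change are given without it too. Single genes are given without it in some places only, and other values include it.

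The labelled cell type was checked against its markers. The myoblast and myotube markers had a mean signal of 7.14 to 7.42 at 24 h with nontargeting siRNA and 7.27 to 7.37 with ZNF148 siRNA, and 16.09 to 16.49 with ZNF148 siRNA at all later times in both media. At 24 h 4 to 7 of these 10 markers were well above background on an array, and all 10 at later times. Adipocyte markers were low, with 2 or 3 of 7 well above background on any array and mean signals of 3.95 to 4.86. All 5 fibroblast markers were well above background on all arrays, with mean signals of 11.59 to 12.31 with ZNF148 siRNA and 11.92 to 13.09 with nontargeting siRNA. Of 4 endothelial and blood cell markers, 1 to 4 were well above background at 24 h and 3 or 4 later. Their mean signals were 4.98 to 6.38. In RNA of whole cultures, fewer cells of a type and less RNA per cell cannot be told apart.

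Together the 32 genes were highest at 48 h in cells given ZNF148 siRNA and switched to differentiation media. On each array, the median deviation of the 32 genes from their own means over all arrays was taken as their common level. It was highest with ZNF148 siRNA at 48 h in differentiation media, at 0.79, 0.94 and 0.89, and next with ZNF148 siRNA at 24 h in growth media, at 0.58, 0.6 and 0.41. It was lowest with nontargeting siRNA at 96 h in growth media, at -0.48 and -0.45. With ZNF148 siRNA at 96 h in differentiation media it was -0.09 to -0.03, below both arms of 24 h. ZNF148 siRNA arrays lay above their nontargeting arrays without overlap at every time in both media. At 96 h in growth media the gap was small, with -0.43 to -0.35 against -0.48 to -0.45. At 48 h in growth media the control array that stood apart had -0.15, closer to the ZNF148 siRNA arrays than the -0.47 of both others in its group. By group mean, 19 genes were highest with ZNF148 siRNA at 48 h in differentiation media and 9 with ZNF148 siRNA at 24 h in growth media.

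**Figure D1:**
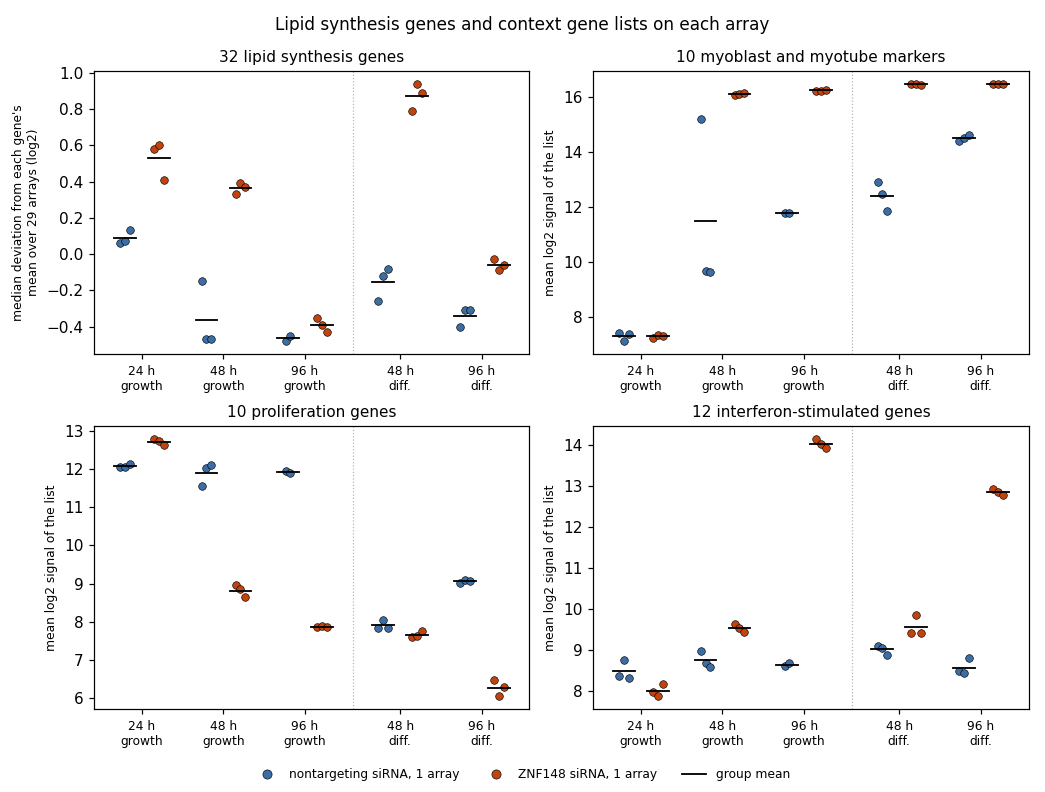
Each point is 1 of 29 arrays, in blue for nontargeting siRNA and red for ZNF148 siRNA, by time and media, and each bar is a group mean. The upper left panel gives the median log2 deviation of the 32 genes, highest with ZNF148 siRNA at 48 h in differentiation media (0.79 to 0.94). The other panels give the mean log2 signal of 3 context lists, and the myotube panel shows the control array at 15.21 apart from 9.66 and 9.67.

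The members did not follow the common level equally. Across the 29 arrays, the correlation of a gene with the median deviation of the other genes was 0.96 for MSMO1, 0.95 for DHCR7 and 0.94 for HSD17B7, all of the sterol steps. It was 0.35 for EBP and ELOVL6, and INSIG2 alone was negative, at -0.5. These are descriptions over 29 arrays that share 10 groups and 4 slides.

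Sterol genes rose with knockdown from the first time point. At 24 h in growth media, 5 of the 32 genes rose, all of them sterol genes: INSIG1 by 1.53, HMGCS1 by 1.25, SQLE by 1.16, IDI1 by 1.15 and HSD17B7 by 1.00. By the same rule 2.46% of all genes rose and 3.08% fell. Without the fold, 22 of the 32 were higher and 1 was lower, against 15.8% and 16.8% of all genes. The median log2 change was 0.56 for the 32 genes and 0 for all genes. HSD17B7 lay at the 2-fold limit and missed it at 0.99, 0.97 or 0.93 when ZNF148 siRNA replicate 1 or 2 or nontargeting replicate 2 was left out. Of 10 muscle markers 1 rose and the list had a median change of -0.06. The proliferation list moved at the same time, with 2 of its 10 genes risen and a median change of 0.71. Of 12 interferon-stimulated genes 3 fell and 1 rose, and the part of these lists in the result was not tested.

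At 48 h in growth media, 12 genes rose and INSIG2 fell. By the same rule 11.7% of all genes rose and 12.3% fell. On the adjusted p alone, 23 were higher and 2 lower, against 27% and 31.2% of all genes. The median change was 0.8, against -0.05 for all genes, and within slides 2, 3 and 4, with 1 array per arm, it was 0.62, 0.92 and 0.84. The control array on slide 2 was the one that stood apart. Without the control array that stood apart, 13 rose, SREBF1 (1.17) being the added one, 1 fell and the median change was 0.89. Beside these changes, all 10 proliferation genes fell and 9 of 10 muscle markers rose, and their part in the result was not tested.

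At 48 h in differentiation media the response was widest: 18 of the 32 genes rose. By the same rule 15.2% of all genes rose and 17.4% fell. By adjusted p alone 26 were higher and 1 lower, against 30.3% and 34.8% of all genes. The median change was 1.08, against -0.05 for all genes, and within slides 2, 3 and 4 it was 0.83, 1.17 and 1.13. Of the 12 genes that rose at 48 h in growth media, 10 (83.3%) also rose here, which is 55.6% of the 18, and no array was shared between the comparisons. Over all genes the shared ones were 72.6% and 56.2% of those that rose, so the overlap of the set is near that of all genes. In this comparison 3 proliferation genes fell and 1 rose, with a median change of -0.19 and levels of 7.84 to 8.06 with nontargeting siRNA and 7.6 to 7.77 with ZNF148 siRNA, while 8 of 10 muscle markers rose. Of 5 fibroblast markers 3 fell and 1 rose, with a median change of -1.41, and the part of these lists in the result was not tested.

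At 96 h fewer members moved past 2-fold than at 48 h. The share of the 32 that rose was 9.38% in growth and 15.6% in differentiation media, near those of all genes. In growth media 3 rose, namely TM7SF2, IDI1 and SREBF2, where 12.3% of all genes rose and 12.5% fell. Without the fold, 11 were higher and 10 lower, against 26.1% and 30.4% of all genes, and the median change was 0.03, against -0.03 for all genes. On slide 4, with 1 ZNF148 siRNA array and both control arrays, it was 0.02. In differentiation media 5 rose, namely STARD4, TM7SF2, FADS1, FADS2 and MVD, where 10.5% of all genes rose and 12.8% fell. On the adjusted p alone, 21 were higher and 6 lower, against 25.3% and 34.1%, with a median change of 0.46, against -0.06 for all genes, and of 0.45 and 0.44 within slides 2 and 3. At this time all 12 interferon-stimulated genes of a context list rose in both media, from 8.61 to 8.68 up to 13.93 to 14.15 in growth media and from 8.45 to 8.8 up to 12.78 to 12.92 in differentiation media. In growth media all 10 proliferation genes fell and 8 of 10 muscle markers rose, and in differentiation media 9 and 4 did. Of 5 fibroblast markers 2 fell in each media. The part of these lists in the result was not tested. Over the 5 comparisons, 21 of the 32 genes rose at least once, INSIG2 fell once, and 10 passed the threshold in none, namely MVK, LSS, CYP51A1, NSDHL, EBP, SC5D, SREBF1, SCAP, ACACA and LPIN1. Of all 18338 genes, 23.4% rose at least once, 27.2% fell at least once and 52.4% did neither.

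**Figure D2:**
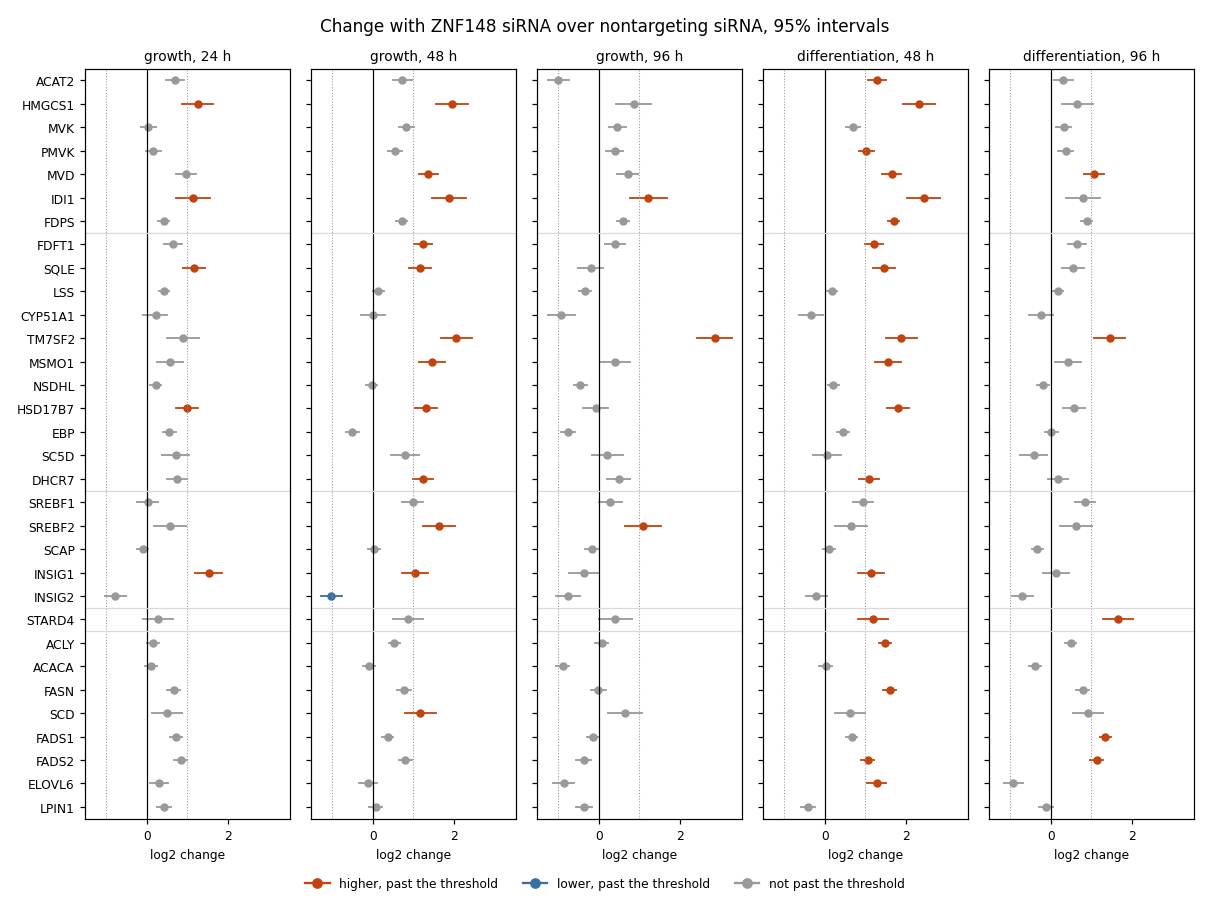
Log2 change of each of the 32 genes with ZNF148 siRNA over nontargeting siRNA in 5 comparisons, with bars for the 95% interval and dotted lines at a 2-fold change. Red points rose and blue points fell past the threshold: 5 rose at 24 h, 12 at 48 h and 3 at 96 h in growth media, and 18 at 48 h and 5 at 96 h in differentiation media, and INSIG2 fell at 48 h in growth media.

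Of the 7 mevalonate genes, 5 were higher on the adjusted p alone at 24 h, 7 at 48 h in growth media, and 7 at both times in differentiation media. At 96 h in growth media 6 were higher and ACAT2 was lower. By this rule 15.8% of all genes were higher at 24 h, and 27% and 26.1% at 48 and 96 h in growth media. In differentiation media 30.3% of all genes were higher at 48 h and 25.3% at 96 h. Past 2-fold, 6 of the 7 rose at 48 h in differentiation media, where 15.2% of all genes rose. HMGCS1, the synthase that joins acetyl-CoA units ahead of mevalonate, had signals of 9.14, 9.23 and 9.32 with nontargeting siRNA at 24 h and 10.51, 10.59 and 10.35 with ZNF148 siRNA. At 48 h in growth media they were 9.65, 8.58 and 8.47 against 10.87, 10.85 and 10.81, and at 48 h in differentiation media 9.38, 9.22 and 9.17 against 11.5, 11.56 and 11.66. At every one of these times all ZNF148 siRNA arrays were above all control arrays, and the control array at 9.65 was the one that stood apart. At 96 h the signals were 8.88 and 8.79 against 9.7, 9.72 and 9.68 in growth media and 9.7, 10.03 and 9.94 against 10.6, 10.44 and 10.63 in differentiation media, still without overlap. The HMGCS1 change was 1.25 (SE 0.186, adjusted p = 2.88e-05) at 24 h and 2.32 (SE 0.186, adjusted p = 5.46e-10) at 48 h in differentiation media. At 48 h in growth media it was 1.95 (adjusted p = 1.95e-08), or 2.32 without the control array that stood apart, and at 96 h it was 0.87 in growth and 0.66 in differentiation media, below 2-fold.

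IDI1 interconverts the isoprenoid diphosphates that feed the pathway. Its signals were 11.03, 11.12 and 11.19 with nontargeting siRNA at 24 h against 12.4, 12.35 and 12.03 with ZNF148 siRNA. They were 11.56, 10.35 and 10.41 against 12.79, 12.71 and 12.48 at 48 h in growth media, and 10.59 and 10.5 against 11.8, 11.77 and 11.73 at 96 h. The groups did not overlap at any of these times, and IDI1 rose in 4 of the 5 comparisons. In differentiation media the signals were 10.7, 10.57 and 10.64 against 12.89, 13.12 and 13.22 at 48 h, and 11.3, 11.45 and 11.39 against 12.21, 12.08 and 12.26 at 96 h. The change was largest at 48 h in differentiation media, at 2.44 (SE 0.2, adjusted p = 7.25e-10), and it was 1.15 at 24 h, 1.88 at 48 h and 1.22 at 96 h in growth media and 0.8 at 96 h in differentiation media. Without the control array that stood apart, the change at 48 h in growth media was 2.28.

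FDPS makes farnesyl diphosphate, where the sterol and isoprenoid branches part. Its signals with nontargeting siRNA in growth media were 13.65, 13.65 and 13.74 at 24 h, then 13.78, 13.51 and 13.46 after 48 h, then 13.35 and 13.38 after 96 h. With ZNF148 siRNA they were 14.09, 14.15 and 14.06, then 14.26, 14.29 and 14.34, then 14.01, 13.91 and 13.95. No control array reached a ZNF148 siRNA array of its time, but the changes of 0.42, 0.72 and 0.59 stayed below 2-fold. In differentiation media the signals were 13.32, 13.3 and 13.3 against 14.96, 15.07 and 14.97 at 48 h, and 13.59, 13.6 and 13.7 against 14.52, 14.51 and 14.52 at 96 h. The change of 1.70 at 48 h (SE 0.0649, adjusted p = 3.86e-15) passed the threshold and that of 0.89 at 96 h did not. The knockdown effect at 48 h was 0.98 larger in differentiation than in growth media (SE 0.0918, adjusted p = 2.76e-08).

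The remaining mevalonate genes differed in size and time. MVD, which decarboxylates mevalonate diphosphate, rose by 1.37 and 1.65 at 48 h in growth and differentiation media and by 1.07 at 96 h in differentiation media, or 0.99 without nontargeting replicate 1, and its change at 24 h was 0.97. PMVK, which adds the second phosphate to mevalonate, rose by 1.03 at 48 h in differentiation media. That PMVK rise fell to between 0.96 and 1 when control replicate 2 or 3 or ZNF148 siRNA replicate 1 was left out. MVK, the first mevalonate kinase, stayed below 2-fold, with changes of 0.04 to 0.82. ACAT2, the cytosolic thiolase that pairs acetyl-CoA units, rose by 1.29 at 48 h in differentiation media, while its change at 96 h in growth media was -0.99.

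**Figure D3:**
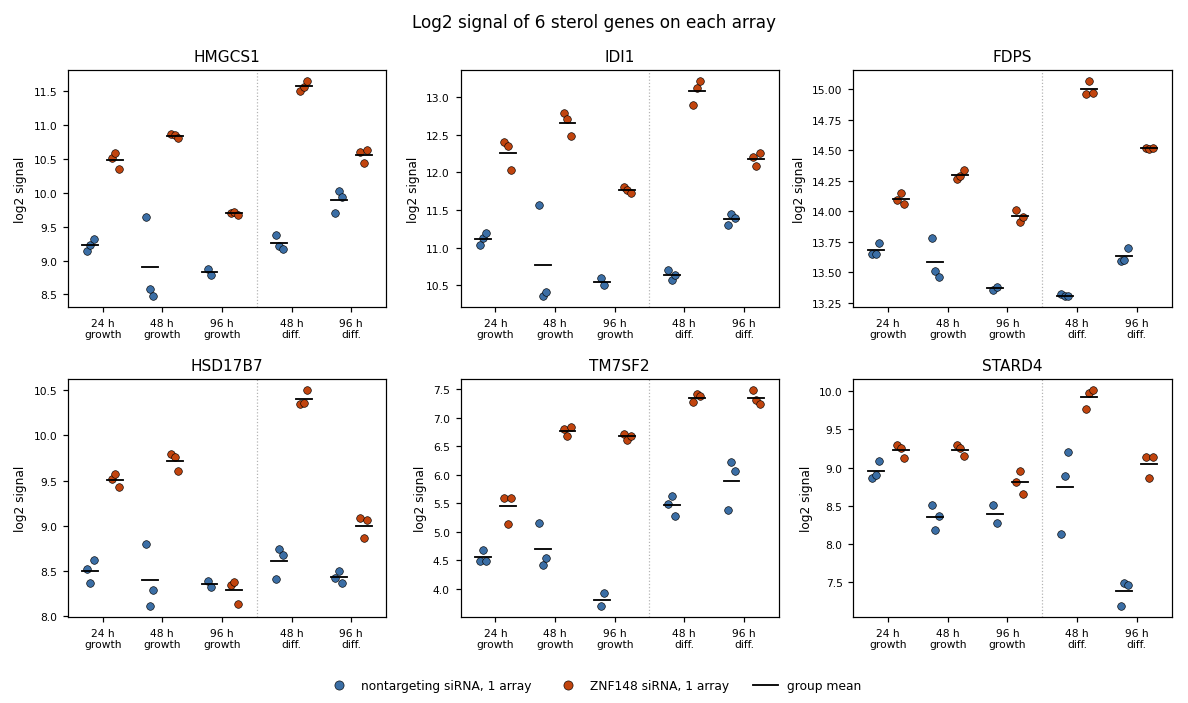
Log2 signal of 6 sterol genes on each of the 29 arrays, in blue for nontargeting siRNA and red for ZNF148 siRNA, with bars for group means and a dotted line between growth and differentiation media. HMGCS1, IDI1 and FDPS of ZNF148 siRNA lie above their controls at every time, and TM7SF2 ranges from 3.7 to 7.48.

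Of the 11 squalene and sterol genes, 2 rose at 24 h, 6 at 48 h in each media, and 1 at 96 h in each media. Of all genes, 2.46% rose at 24 h, 11.7% and 15.2% at 48 h in growth and differentiation media, and 12.3% and 10.5% at 96 h, so the counts of 96 h lie near the share of all genes. FDFT1 makes squalene and SQLE oxidizes it, and both rose at 48 h, FDFT1 by 1.24 and SQLE by 1.17 in growth media and by 1.22 and 1.45 in differentiation media. MSMO1, which removes the methyl groups at carbon C4 of the sterol ring, rose by 1.45 and 1.57 at 48 h. DHCR7, the reductase of the last step through dehydrocholesterol, rose by 1.23 and 1.09. At 96 h in growth media the changes of these 4 genes were 0.4, -0.2, 0.41 and 0.49 in that order, all below 2-fold.

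HSD17B7, the ketosteroid reductase that works with MSMO1 and NSDHL, had signals of 8.52, 8.36 and 8.62 with nontargeting siRNA at 24 h against 9.52, 9.57 and 9.43 with ZNF148 siRNA. At 48 h they were 8.8, 8.11 and 8.29 against 9.79, 9.76 and 9.61 in growth media and 8.41, 8.74 and 8.68 against 10.35, 10.36 and 10.5 in differentiation media. The arms did not overlap at either time. At 96 h the growth media arrays overlapped, with 8.39 and 8.32 against 8.34, 8.38 and 8.13, and in differentiation media the values were 8.42, 8.5 and 8.37 against 9.08, 8.86 and 9.06. The change was 1.32 (SE 0.13, adjusted p = 2.91e-08) and 1.80 (SE 0.13, adjusted p = 1e-10) at 48 h in growth and differentiation media, and -0.07 and 0.57 at 96 h. The other probes of HSD17B7 gave 1.33 and 1.30 at 48 h in growth media and 1.75 and 1.59 in differentiation media, and 0.95 and 0.81 at 24 h.

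TM7SF2, a sterol C14 reductase, lay close to background on many arrays, and the size of its changes depended on the background correction. Its signals with nontargeting siRNA were 4.49, 4.69 and 4.49 at 24 h, where no array was well above background, 5.15, 4.42 and 4.55 at 48 h and 3.7 and 3.92 at 96 h in growth media, where 2 of 3 and 1 of 2 arrays were. With ZNF148 siRNA they were 5.6, 5.14 and 5.6 at 24 h, where 2 of 3 arrays were well above background, 6.8, 6.68 and 6.83 at 48 h, then 6.72, 6.61 and 6.68 after 96 h. The arms did not overlap at any time in growth media. At 24 h the gene was at least 1.71-fold higher with ZNF148 siRNA, and the fitted changes were 2.06 (adjusted p = 8.37e-09) at 48 h, then 2.86 (adjusted p = 3.39e-10) at 96 h. In differentiation media the signals were 5.49, 5.63 and 5.27 against 7.27, 7.41 and 7.37 at 48 h and 5.38, 6.22 and 6.07 against 7.48, 7.31 and 7.24 at 96 h, with changes of 1.88 and 1.45. With normexp background correction, which compresses dim signals, the changes were 1.04 at 96 h in growth media and 1.03 at 48 h in differentiation media, and they were below 2-fold, at 0.84 and 0.91, at 48 h in growth media and 96 h in differentiation media.

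Several sterol genes stayed below 2-fold in all 5 knockdown comparisons. At 24 h 10 of the 11 genes were higher on the adjusted p alone, all but CYP51A1, against 15.8% of all genes. CYP51A1, the lanosterol demethylase, had changes of 0.22, 0 and -0.92 at 24, 48 and 96 h in growth media and of -0.33 and -0.23 in differentiation media. NSDHL, of the same demethylation steps as MSMO1, ranged from -0.46 to 0.22, and EBP, the sterol isomerase, from -0.76 to 0.56. SC5D, the sterol desaturase, had changes of 0.71 (24 h) and 0.79 (48 h) in growth media, with -0.42 at 96 h in differentiation media. LSS closes the sterol rings, and its probes disagreed. The chosen probe gave 0.14 and 0.17 at 48 h in growth and differentiation media and 0.17 at 96 h in differentiation media, whereas the other probe, matched to another LSS transcript, gave 1.29, 1.51 and 1.88, all past the threshold.

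Among the sensors, INSIG1 rose and INSIG2 fell at 48 h in growth media. INSIG1, itself induced by SREBP, had signals of 12.71, 12.87 and 12.85 with nontargeting siRNA at 24 h against 14.43, 14.34 and 14.24 with ZNF148 siRNA, the largest change of the set at that time, at 1.53 (SE 0.155, adjusted p = 2.32e-07). It rose by 1.04 at 48 h in growth media and by 1.15 in differentiation media, and at 96 h the changes were -0.37 and 0.14. The rises at 48 h fell to 0.86 without nontargeting replicate 2 or 0.97 without ZNF148 siRNA replicate 2 in growth media, and to 0.98 without nontargeting replicate 1 in differentiation media. INSIG2, a second anchor of SCAP, had signals of 8.98, 9.06 and 9.36 against 8.17, 8.13 and 8.05 at 48 h in growth media and fell by 1.02 (SE 0.125, adjusted p = 5.73e-07). Without nontargeting replicate 3 or ZNF148 siRNA replicate 3 this was -0.9 or -0.98, and -0.87 with normexp. Its changes were -0.77 at 24 h, -0.75 at 96 h in growth media and -0.7 at 96 h in differentiation media, each with an adjusted p of at most 0.000128. At 48 h in differentiation media it was -0.21 (adjusted p = 0.176), with 0.04 from the other probe. The other INSIG2 probe gave -0.92 at 48 h in growth media, below 2-fold, and -0.01 at 96 h in differentiation media, so the probes disagreed there. The INSIG and SREBP genes and FADS1 were given by array after their values had been seen.

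The SREBP genes differed from each other. SREBF2, which encodes the SREBP of the sterol branch, rose by 1.63 at 48 h in growth media (SE 0.191, adjusted p = 3.12e-07) and by 1.09 at 96 h, or 0.97 without nontargeting replicate 2. In differentiation media its changes were 0.65 and 0.62, and 1 of the 3 ZNF148 siRNA arrays at 96 h had 10.6 against 11.42 and 11.39. SREBF1, which encodes the SREBP of the fatty acid branch, had a change of 0.02 at 24 h, 0.98 at 48 h in growth media and 0.95 at 48 h in differentiation media. Its other probe gave 0.18 and 0.12 at 48 h. SCAP stayed between -0.33 and 0.11.

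**Figure D4:**
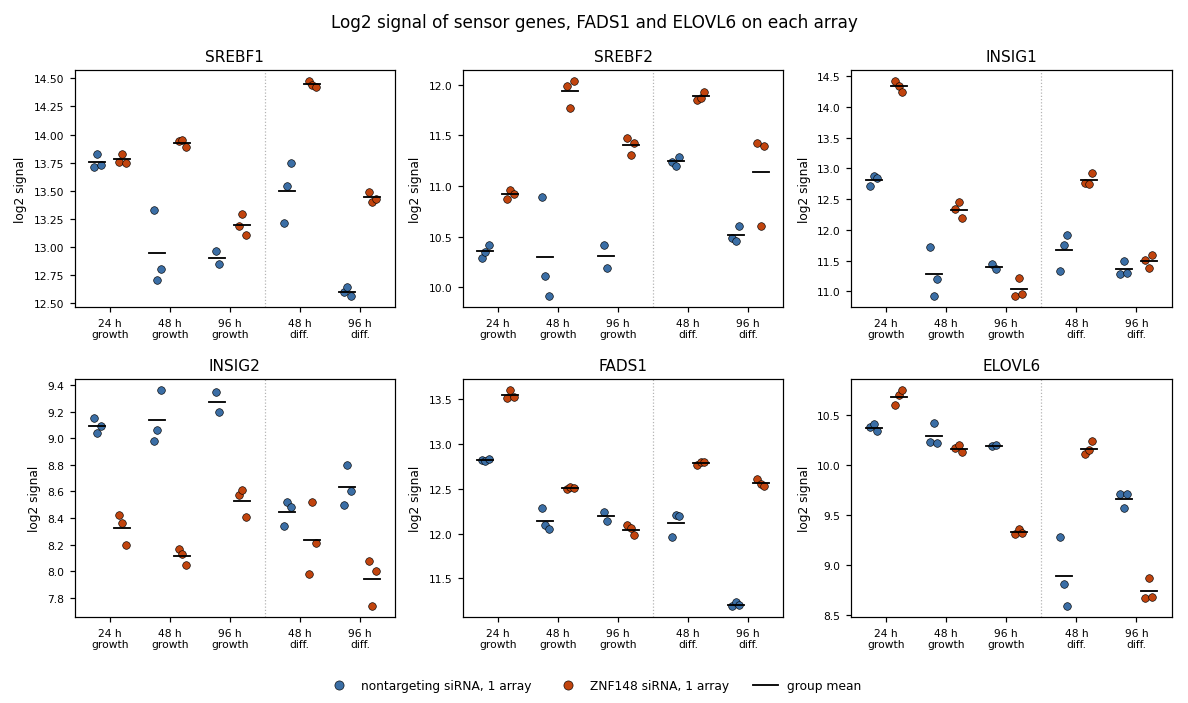
Log2 signal of the SREBP and INSIG genes and of FADS1 and ELOVL6 on each of the 29 arrays, in blue for nontargeting siRNA and red for ZNF148 siRNA, with bars for group means. INSIG1 is highest with ZNF148 siRNA at 24 h (14.24 to 14.43), INSIG2 lies lower with ZNF148 siRNA at every time in growth media, and ELOVL6 with ZNF148 siRNA lies above its control at 48 h and below it at 96 h in differentiation media.

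STARD4, a carrier that moves cholesterol between membranes, had signals of 8.13, 8.89 and 9.2 with nontargeting siRNA at 48 h in differentiation media against 9.77, 9.98 and 10.01 with ZNF148 siRNA. At 96 h they were 7.19, 7.49 and 7.47 against 9.14, 8.86 and 9.14. The arms did not overlap, and STARD4 rose by 1.18 (adjusted p = 6.41e-06) and 1.66 (SE 0.178, adjusted p = 7.84e-08). Without nontargeting replicate 1 the change at 48 h was 0.88. In growth media the signals were 8.86, 8.9 and 9.09 against 9.29, 9.26 and 9.13 at 24 h, 8.51, 8.18 and 8.37 against 9.3, 9.25 and 9.15 at 48 h, and 8.51 and 8.28 against 8.81, 8.95 and 8.66 at 96 h. All ZNF148 siRNA arrays lay above their controls there too. The change of 0.88 at 48 h was below 2-fold (adjusted p = 0.000272), and those of 0.28 and 0.41 at 24 and 96 h did not pass the test (adjusted p = 0.312 and 0.104).

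The fatty acid genes passed 2-fold mostly in differentiation media. Of the 8 genes, 4 rose at 48 h in differentiation media: FASN, the fatty acid synthase, by 1.60, ACLY, which makes cytosolic acetyl-CoA from citrate, by 1.49, ELOVL6, which elongates palmitate, by 1.28, and FADS2, the delta-6 desaturase, by 1.06, or 0.99 with normexp. Of all genes 15.2% rose in that comparison. On the adjusted p alone 5, 5 and 1 of the 8 were higher at 24, 48 and 96 h in growth media. Of all genes 15.8%, 27% and 26.1% were. At 96 h in growth media 4 of the 8 were lower, against 30.4% of all genes. In differentiation media 6 and 5 of the 8 were higher at 48 and 96 h, against 30.3% and 25.3% of all genes. In growth media SCD, the stearoyl-CoA desaturase, rose by 1.17 at 48 h, or 1.53 without the control array that stood apart and 0.99 without nontargeting replicate 2. At 96 h in differentiation media FADS1, the delta-5 desaturase, rose by 1.35, from 11.19, 11.23 and 11.2 to 12.61, 12.55 and 12.53 (SE 0.0655, adjusted p = 4.41e-13), and FADS2 rose by 1.13. ACACA, which makes malonyl-CoA, had changes of -0.89 and -0.39 at 96 h in growth and differentiation media, and LPIN1, a phosphatidate phosphatase, of 0.42 at 24 h and -0.36 at 96 h in growth media. ELOVL6 was 0.92 lower at 96 h in differentiation media (adjusted p = 4.46e-07), below 2-fold, so it stood above its control at 48 h and under it at 96 h.

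Differentiation media alone moved few of the genes past 2-fold. In the nontargeting arm at 48 h, SC5D rose by 1.09 and ELOVL6 fell by 1.40, where 7.79% of all genes rose and 8.25% fell. With normexp the SC5D change was 0.7, below 2-fold. By adjusted p alone 15 of the 32 were higher and 6 lower, against 25.4% and 24.5% of all genes, with a median change of 0.37, against 0.02 for all genes. Within slides 2, 3 and 4 the median was 0.07, 0.32 and 0.49, and the growth media array on slide 2 was the one that stood apart. Without the control array that stood apart the median was 0.44, and SREBF2 (1.23) and SCD (1.07) also rose. SC5D had signals of 6.35, 6.3 and 6.28 in growth media and 7.14, 7.51 and 7.55 in differentiation media, and ELOVL6 had 10.23, 10.42 and 10.22 against 9.28, 8.81 and 8.59. Neither pair of groups overlapped. All 10 proliferation genes fell in this comparison, from 11.55 to 12.1 down to 7.84 to 8.06 in mean signal, and their part in the result was not tested.

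In the nontargeting arm at 96 h, TM7SF2 and HMGCS1 rose and STARD4 fell, where 6.82% of all genes rose and 8.27% fell. On the adjusted p alone, 10 were higher and 10 lower, against 21.5% and 22.4% of all genes. HMGCS1 went from 8.88 and 8.79 in growth media to 9.7, 10.03 and 9.94, a change of 1.06 (SE 0.208, adjusted p = 0.000358), and 0.99 without differentiation media replicate 2. The change of TM7SF2 was 2.08 (SE 0.208, adjusted p = 6.94e-08), with 1 of the 2 growth media arrays well above background, and it was 0.58 with normexp. STARD4 went from 8.51 and 8.28 to 7.19, 7.49 and 7.47 and fell by 1.01 (SE 0.199, adjusted p = 0.000351), or by 0.89 without growth media replicate 1 and 0.91 without differentiation media replicate 1. FADS1 was 0.98 lower (adjusted p = 9.23e-10) and FASN 0.55 lower, and on the adjusted p alone 6 of the 8 fatty acid genes were lower, while 5 of the 7 mevalonate genes were higher. INSIG2 changed by -0.64 by its chosen probe (adjusted p = 0.000907). Its other probe gave -1.2 (adjusted p = 4.23e-08), past the threshold. The median change of the set was 0.06, against 0 for all genes. The growth media arrays of this arm were both on slide 4 and the differentiation media arrays on slides 2 and 3, so no slide gives a value of its own, and with slide as a block HMGCS1 (0.95) and STARD4 (-0.92) were below 2-fold. Here 6 of 10 muscle markers rose and all 10 proliferation genes fell, and their part in the result was not tested.

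In the ZNF148 siRNA arm most members were higher in differentiation media, by less than 2-fold against growth media of the same hours. With growth media at 96 h as reference instead, the median change at 48 h in differentiation media was past 2-fold. At 48 h, 25 of the 32 were higher on the adjusted p alone, where 7.54% of all genes were higher and 11.6% lower, and MVD rose past 2-fold, where 1.13% of all genes rose and 2.85% fell. MVD had signals of 9.48, 9.49 and 9.62 in growth media and 10.62, 10.5 and 10.62 in differentiation media, a change of 1.05 (SE 0.114, adjusted p = 1.23e-06). The median change was 0.43, against 0.02 for all genes, and within slides 2, 3 and 4 it was 0.37, 0.49 and 0.45. At 96 h, 19 were higher and 2 lower, against 10.3% and 18.3% of all genes, and ACAT2 rose past 2-fold, where 1.44% of all genes rose and 4.94% fell. ACAT2 went from 10.78, 10.82 and 10.59 to 11.84, 11.93 and 11.84, a change of 1.14 (SE 0.108, adjusted p = 9.89e-08). The median change was 0.37, against -0.03 for all genes, and 0.4 and 0.37 within slides 3 and 4. The muscle markers differed little between media in this arm, with median changes of 0.24 at 48 h and 0.21 at 96 h, while 8 and 6 of the 10 proliferation genes fell. At 96 h 8 of 12 interferon-stimulated genes fell too, with a median change of -1.26, and the part of these lists in the result was not tested.

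**Figure D5:**
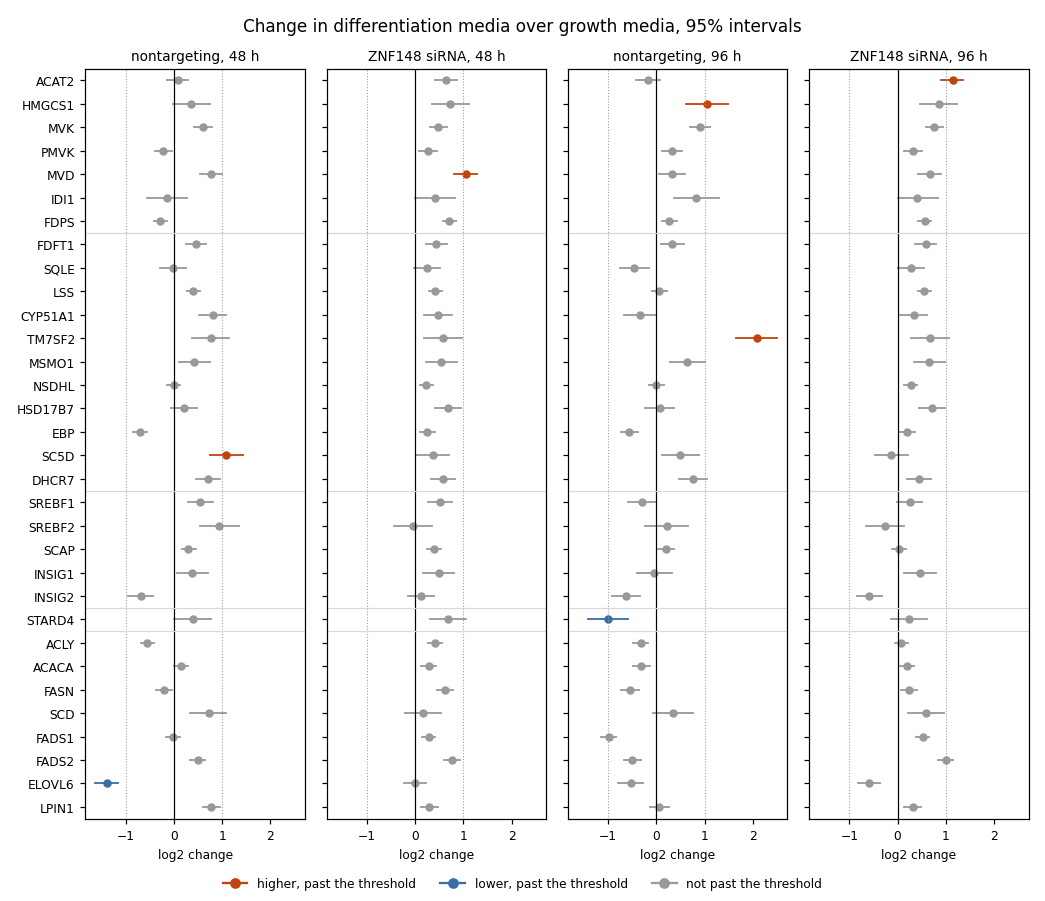
Log2 change of each of the 32 genes in differentiation media over growth media, by siRNA and time, with bars for the 95% interval and dotted lines at a 2-fold change. Red points rose and blue points fell past the threshold. With ZNF148 siRNA at 48 h most points lie to the right of 0 (median 0.43), and with nontargeting siRNA at 96 h they lie on both sides (median 0.06).

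The knockdown effect was also compared between media and times, as a difference of changes tested in the same fit. At 48 h it was larger in differentiation than in growth media past 2-fold for ELOVL6, by 1.39 (SE 0.158, adjusted p = 4.1e-07), where 8.15% of all genes were larger and 9.1% smaller. The ELOVL6 mean was 10.17 in both media with ZNF148 siRNA, and 10.29 in growth and 8.89 in differentiation media with nontargeting siRNA. Without the fold, 9 genes had a larger effect and 3 a smaller one, against 20.7% and 21.8% of all genes. Among the 9 were FDPS (0.98), ACLY and EBP (0.96 each) and FASN (0.83), and among the 3 was SREBF2 (-0.99). The median difference was 0.25, against 0 for all genes. Without the control array that stood apart it was 0.11, EBP (1.03) passed 2-fold as well, and SREBF2 passed it in the other direction (-1.28).

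At 96 h the effect was larger in differentiation media for FADS1 (1.50, SE 0.0983), FADS2 (1.50, SE 0.115), ACAT2 (1.31, SE 0.162) and STARD4 (1.25, SE 0.267), and smaller for TM7SF2 (-1.41, SE 0.279). By the same rule 5.57% of all genes were larger and 6.94% smaller. On the adjusted p alone 14 were larger and 1 smaller, against 14.4% and 17.3%, with a median of 0.28, against -0.04 for all genes. The TM7SF2 difference was -0.13 with normexp and no longer passed the test. In growth media the effect at 96 h was past 2-fold smaller than at 24 h for 8 genes, namely INSIG1 (-1.89), ACAT2 (-1.69), SQLE (-1.36), EBP (-1.32), FADS2 (-1.21), ELOVL6 (-1.16), CYP51A1 (-1.13) and HSD17B7 (-1.08), and larger for TM7SF2 (1.97). The TM7SF2 value is not a measured size, since no control array at 24 h was well above background, and with normexp it was 0.75, below 2-fold. By the same rule 11.7% of all genes were larger and 11.3% smaller. Without the fold 2 were larger and 14 smaller, against 22.2% and 25.1%. The median was -0.32, against -0.03 for all genes. The arrays of 24 h and of 96 h lay on different slides, and HSD17B7 (-0.95) and CYP51A1 (-0.99) were below 2-fold with slide as a block.

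Genes around the pathway were counted in lists drawn up for this purpose. Of 13 genes of sterol efflux, esterification and lysosomal release, 1 fell at 24 h, and at 96 h in growth media 4 fell and 1 rose, with a median change of -0.83, where 12.5% of all genes fell and 12.3% rose. The median of this list was -0.13 at 24 h, -0.69 at 48 h in growth media, and -0.9 and -0.19 at 48 and 96 h in differentiation media. ABCA1, which exports cholesterol from the cell, fell in all 5 comparisons. Its signals at 24 h were 10.69, 10.78 and 10.67 with nontargeting siRNA and 8.95, 8.91 and 8.82 with ZNF148 siRNA, a fall of 1.82 on the log2 scale (SE 0.088, adjusted p = 6.01e-12). The ABCA1 change was -1.01 at 48 h and -1.37 at 96 h in growth media, and -1.68 and -2.99 in differentiation media. NPC1, which releases cholesterol from lysosomes, and SOAT1, which esterifies it, fell by 1.61 and 1.82 at 96 h in growth media and by 1.67 and 2.36 at 48 h. CH25H, the cholesterol hydroxylase, fell by 2.92 in differentiation relative to growth media in the nontargeting arm at 96 h.

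Of 8 genes of SREBP maturation and sterol-regulated degradation, ERLIN1, which takes part in the degradation of INSIG-bound proteins, fell by 1.47 in differentiation media in the nontargeting arm at 96 h and by 1.41 with ZNF148 siRNA at 96 h in growth media. The 9 genes of the isoprenoid branch had median changes with knockdown of -0.09 to 0.16. Of 22 tested genes among 23 of other fatty acid and triglyceride synthesis, 5 rose and 4 fell at 96 h in growth media, where 12.3% of all genes rose and 12.5% fell. DGAT2 had the largest change among the called genes of this list, a fitted fall of 2.61. No ZNF148 siRNA array of that group was well above background for DGAT2, so this is not a measured size. FADS3, a desaturase relative, rose by 1.81 and ACACB, the mitochondrial acetyl-CoA carboxylase, by 1.50, and SCD5, the second stearoyl-CoA desaturase, fell by 1.38. Of 13 tested genes among 14 of fatty acid oxidation, 4 rose and 1 fell in the same comparison, to be read against the same shares. FABP3, the muscle fatty acid carrier, rose by 5.89, CD36, the fatty acid transporter, by 3.15 and CPT1B, the muscle carnitine palmitoyltransferase, by 1.34, while CPT1A, the form of other tissues, fell by 1.58. On the control array that stood apart FABP3 had 10.06 and CD36 11.21, against 5.6 to 5.78 and 7.6 to 7.98 on the other arrays of its group.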

How the data were processed

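Total RNA of 29 cultures was measured on 1-colour Agilent arrays of 62976 spots. The deposited scanner files hold spot intensity, which the authors obtained with Agilent Feature Extraction 10.7.3.1 per the file headers. The intensity was background-subtracted as deposited and not normalized between arrays. The authors also deposited log2 values, which per the methods were background-subtracted and quantile normalized in Partek, and 140 control probes were left in them. The build named in the headers was hg19 for 14 arrays and absent from the others, so no array coordinates are given.

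From the processed spot intensity, 2075 control spots and spots marked as outliers were removed (891 probe values set missing), spots of a probe were averaged as log2 values, and the 58201 probes were quantile normalized. The test took in the 38714 probes that at least 2 arrays measured well above background. One limma 3.58.1 fit (R 4.3.3, data.table version 1.17.8) held 10 group means, and 12 contrasts were tested by empirical Bayes with Benjamini-Hochberg adjustment over all tested probes. The fit and its calls were tested on simulated data with known changes. Probes were named through the RefSeq accession of the array design (31104 probes, 22439 genes). A gene was represented by the probe with the highest mean in the authors' log2 values, and 18338 genes were represented by a tested probe. The share of all genes called was counted over these.

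All 32 members were described. Values by array were given for up to 6 members for knockdown and up to 6 for media, the called ones first, and up to 4 genes of each wider list. Members, gene lists and tests were chosen with earlier results of these data known. The replicate numbers of the labels did not pair the arrays: correlations of deviations between arrays of the same number ran from -0.14 to 0.12. Alternatives covered scaling, background correction, the authors' values, filters, variance models, slide and replicate blocks, probe choice, the methods' t-test, the growth media reference and each array left out, and the slide as a fixed block was added after the data had been seen.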

Additional observations from a re-analysis of the deposited data

Results flagged for a closer look

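The following 15 differences between knockdown effects were past 2-fold with an adjusted p under 0.05 by limma over all tested probes. Each is a log2 difference of ZNF148 siRNA over nontargeting siRNA changes, and no explanation was tested. Between media at 48 h 1 of the 32 genes was larger, where 8.15% of all genes were larger and 9.1% smaller. Between media at 96 h 4 were larger and 1 smaller, where 5.57% and 6.94% of all genes were. Between 96 h and 24 h 1 was larger and 8 were smaller, where 11.7% and 11.3% of all genes were.

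Between media at 48 h, the effect on ELOVL6 was larger in differentiation media by 1.39 (adjusted p = 4.1e-07), with changes of 1.28 against -0.12. Its mean signal with ZNF148 siRNA was 10.17 in both media. With nontargeting siRNA it was 8.89 in differentiation and 10.29 in growth media. Between media at 96 h, the differences were 1.50 for FADS1 (adjusted p = 6.31e-10), 1.50 for FADS2 (adjusted p = 5.74e-09), 1.31 for ACAT2 (adjusted p = 3.76e-06) and 1.25 for STARD4 (adjusted p = 0.00133). FADS2 changed by 1.13 in differentiation media and -0.37 in growth media, and ACAT2 by 0.31 and -0.99. The TM7SF2 difference was -1.41 (adjusted p = 0.000676), with changes of 1.45 and 2.86, and with normexp it was -0.13 and did not pass the test (adjusted p = 0.568).

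Between 96 h and 24 h in growth media, the effect on INSIG1 differed by -1.89 (adjusted p = 1.3e-06), from 1.53 at 24 h to -0.37 at 96 h. ACAT2 differed by -1.69 (adjusted p = 4.07e-08), SQLE by -1.36 (adjusted p = 9.38e-06) and EBP by -1.32 (adjusted p = 7.26e-09). FADS2 differed by -1.21 (adjusted p = 3.37e-08), ELOVL6 by -1.16 (adjusted p = 9.65e-06), CYP51A1 by -1.13 (adjusted p = 0.000185) and HSD17B7 by -1.08 (adjusted p = 0.000141). TM7SF2 differed the other way, by 1.97 (adjusted p = 7.93e-06), but no control array at 24 h was well above background, so this is not a measured size, and with normexp it was 0.75, below 2-fold.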

How the results depend on the processing

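Of 1479 values of called members under the alternatives, 1435 kept direction and threshold, 44 kept direction but missed the threshold, and 0 changed sign. Normexp cost 14 of 66 calls, slide as a fixed block 4, averaging of probes 3, and scaling to the 75th percentile, slide as a random block and array weights 1 each. The cause was not tested.

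With scaling to the 75th percentile, 1 gene fell with knockdown at 96 h in growth media, the median change at 48 h in differentiation media was 1.27, and the media effect at 96 h with nontargeting siRNA had 1 risen, 2 fallen and a median of -0.07, which reversed its sign. The media medians with ZNF148 siRNA were 0.51 at 48 h and 0.31 at 96 h, 5 effects were larger in differentiation media at 48 h, and the median differences were 0.36 between media at 96 h and -0.45 between times. This scaling moved the median of all genes by at most 0.1.

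With normexp, the knockdown medians were 0.46 at 24 h and 0.35 at 96 h in differentiation media, where 3 rose, and 0 fell at 48 h in growth media. The media effect with nontargeting siRNA had 0 risen at 48 h, and 0 risen and 0 fallen at 96 h, and the median with ZNF148 siRNA at 96 h was 0.33. Between media 2 effects were larger at 48 h, 0 were smaller at 96 h with a median of 0.21, and 0 were larger at 96 h than at 24 h.

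Slide as a random block left 0 fallen for media at 96 h with nontargeting siRNA, and as a fixed block 1 risen and 0 fallen, with a median difference between media at 96 h of 0.37. Array weights gave 3 risen for media at 48 h with nontargeting siRNA, and 1 smaller effect and a median of 0.11 between media at 48 h. Averaged probes gave 0 fallen at 48 h in growth media and medians of 0.14 at 96 h in growth media, 0.51 at 96 h in differentiation media and 0.32 between media at 96 h. Against growth media at 96 h, 3 genes rose in differentiation media at 48 h with nontargeting siRNA and 18 with ZNF148 siRNA, with a median of 1.04. The share of all genes was not counted for this reference, so the 3 and 18 genes cannot be set against it.

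Without a fold threshold, knockdown had 22 higher and 1 lower at 24 h, 23 and 2 at 48 h, then 11 and 10 at 96 h in growth media, 1 lower at 48 h and 21 higher and 6 lower at 96 h in differentiation media. Media had 15 and 6 at 48 h and 10 and 10 at 96 h with nontargeting siRNA, and 25 higher at 48 h and 19 and 2 at 96 h with ZNF148 siRNA. The differences had 9 and 3 between media at 48 h, 14 larger at 96 h, and 2 and 14 between times.

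Leaving out 1 array at a time gave 4 to 5 risen, 0 fallen and a median of 0.52 to 0.61 at 24 h, 10 to 13, 0 to 1 and 0.75 to 0.89 at 48 h and 2 to 3, 0 to 1 and 0.02 to 0.06 at 96 h in growth media. In differentiation media it gave 16 to 18, 0 and 0.99 to 1.1 at 48 h and 4 to 5, 0 and 0.41 to 0.49 at 96 h. For media with nontargeting siRNA it gave 1 to 3, 1 and 0.24 to 0.44 at 48 h and 1 to 2, 0 to 2 and 0 to 0.1 at 96 h, and with ZNF148 siRNA 1, 0 and 0.42 to 0.49 at 48 h and 1 to 2, 0 and 0.36 to 0.39 at 96 h. The differences had 1 to 2, 0 to 1 and 0.11 to 0.29 between media at 48 h, 4, 1 and 0.26 to 0.33 at 96 h, and 1, 7 to 9 and -0.38 to -0.29 between times. The control array that stood apart gave the 3 risen for media at 48 h.

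The replicate numbers share only a number. With the replicate block every count of calls was as without it, and the medians were 0.56, 0.8, 0.03, 1.08 and 0.46 for knockdown, 0.37, 0.05, 0.43 and 0.37 for media and 0.25, 0.27 and -0.31 for the differences.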
